A study of Mus musculus with 5 samples.

Results

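The genes described here encode subunits of voltage-gated sodium channels, voltage-gated calcium channels and the hyperpolarization-activated pacemaker (HCN) channels. They were chosen by symbol, as those starting with Scn, with Cacna, Cacnb or Cacng, or with Hcn, each followed by a digit, and 39 of the 22180 genes on the array belonged to them. Of 44 protein-coding mouse genes in RefSeq with such symbols, 5 were not analysed here, and these included sodium channel alpha and beta subunits, so the sodium channel family is covered only in part. All values come from hearts of wildtype C57Bl6J mice taken at zeitgeber time 12, that is, 12 h after lights on. Hearts were mounted on a Langendorff apparatus, which perfuses them outside the body, and went through 20 min of stabilisation, 20 min without flow and 20 min of reperfusion. In the antagonist group (n = 3) the mice had received an antagonist of REV-ERB alpha, a repressor of the circadian clock, into the peritoneum at 10 µM, 4 h and 1 h before the perfusion. The sham group (n = 2) had ischemia and reperfusion alike, but no antagonist. Compound and vehicle are not named in the labels, hearts without ischemia were not analysed here, and whole tissue was used, so fewer cells of a type and less RNA per cell cannot be told apart.

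In heart muscle, sodium channels carry the upstroke of the action potential, and L-type calcium channels carry the calcium that triggers contraction. A calcium channel has a pore-forming alpha1 subunit, and beta and alpha2delta subunits bring it to the membrane and tune its gating. HCN channels open on hyperpolarization and are known for their part in the pacemaker of the sinus node, where T-type and Cav1.3 calcium channels also contribute. Transcript levels of cardiac ion channels are known to vary with the time of day, and the comparison asks whether those of these subunits differ in reperfused hearts after the antagonist.

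No subunit gene passed the test between antagonist and sham hearts. Of the 39 genes, 30 had a mean at or above the level filter of 3.42, the 40th percentile of all probes, and were tested with limma among 15294 genes. After Benjamini-Hochberg adjustment over all of them 0 of the 30 passed at 0.05 (smallest adjusted p = 0.64), and 0 of all 15294 genes did, or 0%. At an unadjusted p under 0.05 there was 1 member, Cacng2, beside 4.6% of all tested genes. It was lower with the antagonist, as 2.37% of all genes were, and 0 members were higher, beside 2.23%. The median difference, antagonist minus sham, was -0.03 on the log2 scale over the 30 members and 0.00 over all tested genes, and the median absolute difference was 0.07 in both. Of the members, 19 had a difference below 0, 8 above 0 and 3 of exactly 0, compared with 46.3%, 47.7% and 6.03% of all tested genes. These counts moved with single arrays: 16 lay below 0 and 10 above without sham replicate 1, 15 and 12 without sham replicate 2, and 20 and 5 without antagonist replicate 2. No member differed by 0.5 or more, as 1.14% of all genes did. For 25 of the 30 the 95% interval of limma lay within a 1.5-fold change in either direction, as it did for 82.9% of all genes.

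Those intervals carry a limit that belongs to this table. All 5 arrays had different values for 6 of the 30 members, or 20%, beside 26.1% of all tested genes; 11 had the same value on both sham arrays and 6 the same value on all 3 antagonist arrays. Equal values make an interval narrow, whatever the variation among hearts. The same value also recurred between members, tested or not: 3.60899 stood 12 times in 3 of them and 2.98799 stood 11 times in 4. Tied values also count as an overlap of the groups.

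**Figure D1:**
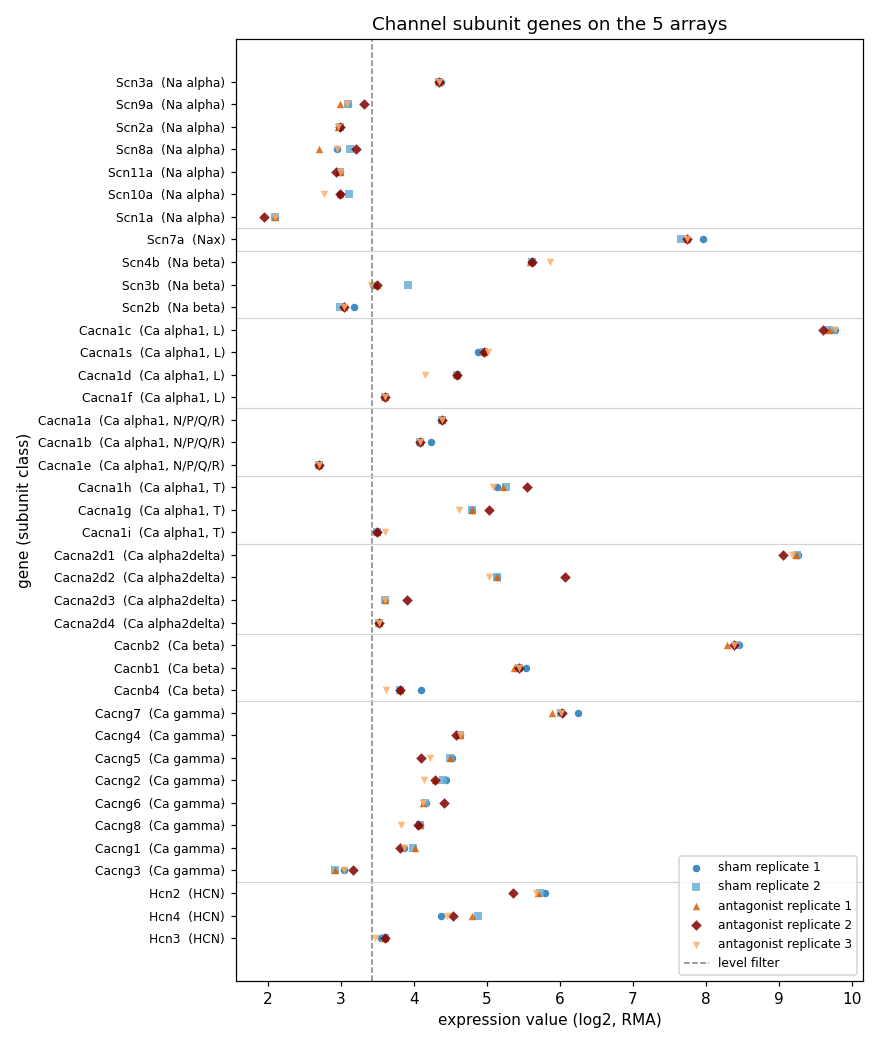
Expression values (log2, RMA) of the 39 channel subunit genes, 1 symbol per array, ordered by subunit class and level; the dashed line is the level filter at 3.42. Cacna1c, Cacna2d1 and Cacnb2 lie above 8 on every array, Scn7a near 7.8, and Cacna2d2 stands at 6.06 on antagonist replicate 2 against at most 5.13 on the others.

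Ranked by their mean over the 5 arrays, the 3 subunits known to build the L-type channel of heart muscle came first, and they were the only ones with a mean above 8. The rank is one of probe signals, which depend on probe sequence as well as on the amount of RNA, so it does not rank transcripts. Cacna1c encodes Cav1.2, the pore of the cardiac L-type channel, and measured 9.77 and 9.69 on the sham arrays and 9.69, 9.61 and 9.77 on the antagonist arrays. The groups overlapped, and the difference was -0.04 ± 0.06 (SE; limma adjusted p = 0.77), with a 95% interval from 0.86-fold to 1.10-fold. Cacna2d1 encodes an alpha2delta subunit that binds gabapentin, and measured 9.27 and 9.25 in sham and 9.24, 9.06 and 9.18 with the antagonist. All antagonist hearts lay below both sham hearts, with a difference of -0.10 ± 0.06 (adjusted p = 0.64) that was -0.05 without antagonist replicate 2. Cacnb2 encodes the main beta subunit of heart muscle, and measured 8.45 and 8.43 in sham and 8.29, 8.39 and 8.39 with the antagonist. These groups did not overlap either, with a difference of -0.09 ± 0.04 (adjusted p = 0.64). A second Cacnb2 probe was much dimmer, with a mean of 3.13, and gave a difference of 0.08, and with both probes averaged the difference was -0.0028.

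The groups did not overlap for 4 members, Cacna2d1, Cacnb2, Hcn2 and Cacng2, or 13.3% of the 30, beside 12.5% of all tested genes, so the share is near the background. All 4 were lower with the antagonist, where 6.33% of all genes were, and 0 were higher, where 6.19% were. Cacng2 encodes stargazin, known for carrying AMPA receptors in neurons, and measured 4.44 and 4.39 in sham and 4.29, 4.29 and 4.14 with the antagonist. Its difference of -0.18 ± 0.06 had the smallest p of the members (unadjusted p = 0.045, adjusted p = 0.64), and by exact permutation (two-sided, 10 ways to divide the arrays) it was the only tested member at p = 0.10, the smallest that this design allows. A second Cacng2 probe, with a mean of 3.62, gave 0.02, and the mean of both probes -0.08. The count of 4 moved with ties and arrays: it was 8 when each array was centred on its median, which breaks ties, beside 24.7% of all genes, and 8 without sham replicate 1 and 14 without sham replicate 2, where 42.1% and 52.7% of all genes did not overlap.

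The other L-type alpha1 genes had means below 5. Cacna1s, the L-type alpha1 subunit of skeletal muscle, measured 4.88 and 4.97 in sham and 4.97, 4.97 and 5.02 with the antagonist, a difference of 0.06 ± 0.04 (adjusted p = 0.64) that was 0.02 without sham replicate 1. Cacna1d encodes Cav1.3, which contributes to pacemaking, and measured 4.59 on 4 arrays and 4.15 on antagonist replicate 3. Its difference of -0.14 rested on that array and was 0.00 without it. Cacna1f, the L-type channel of the retina, had the value 3.61 on all arrays.

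The T-type channels open at low voltages and are known in the sinus node and in fetal heart muscle. Cacna1h, which encodes Cav3.2, measured 5.14 and 5.26 in sham and 5.22, 5.55 and 5.09 with the antagonist. Cacna1g, which encodes Cav3.1, measured 4.79 on both sham arrays and on antagonist replicate 1, 5.03 on antagonist replicate 2 and 4.61 on antagonist replicate 3. In both genes the highest value was that of antagonist replicate 2, and sham values lay between those of the antagonist arrays. The differences were 0.09 ± 0.16 for Cacna1h and 0.02 ± 0.14 for Cacna1g, and without antagonist replicate 2 they were -0.05 and -0.09. Cacna1i, the third T-type gene, had a mean of 3.52, close to the level filter.

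Among the alpha2delta genes Cacna2d2 varied most. It measured 5.13 on both sham arrays and on antagonist replicate 1, 6.06 on antagonist replicate 2 and 5.02 on antagonist replicate 3. Its difference of 0.27 ± 0.38 was the highest of the members (adjusted p = 0.76), and it was -0.06 without antagonist replicate 2. Cacna2d3 measured 3.90 on antagonist replicate 2 and 3.61 on each of the others, and Cacna2d4 had the value 3.51 throughout.

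Antagonist replicate 2 is the array on which atrial, fat cell and mesothelial markers were high. The 7 measured atrial muscle markers averaged 9.09 there and between 6.68 and 7.18 on the other arrays, and 5 of the 7 had their highest value on it. Sln, an atrial regulator of the calcium pump, measured 10.4 there and between 6.68 and 7.66 elsewhere, and Myl7, an atrial light chain, 9.54 and between 6.11 and 7.01. The exceptions were Myl4, at 6.89 there and 7.01 on antagonist replicate 1, and Nr2f2, at 5.08 there and 5.39 on sham replicate 1. The 6 adipocyte markers averaged 7.07 on antagonist replicate 2 and between 4.94 and 5.22 elsewhere, and the 5 mesothelial markers 5.01 and between 4.26 and 4.29. Of the 6 adipocyte markers 5 had their highest value there, while Fabp4 lay between 10.78 and 10.90 on every array. The 8 genes listed for ventricular muscle averaged between 10.23 and 10.34 on every array, with the myosin gene Myh6 between 12.33 and 12.40. Myh6, Tnni3, Tnnt2 and Actc1 are also expressed in atrial muscle, so this average is not one of ventricular muscle alone. Between the groups 5 of the 8 had a difference below 0 and 3 above, and 0 passed. Hey2 (-0.22), Irx4 (-0.23) and Tnni3 (-0.05) were lower on all antagonist arrays than on both sham arrays. Their limma adjusted p was 0.60, 0.64 and 0.64, and 6.33% of all tested genes were lower without overlap. The 11 pacemaker and conduction markers averaged 5.41 on antagonist replicate 2 and between 5.28 and 5.40 on the others.

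Of the 30 members, 5 lay above every other array by more than 0.1 on antagonist replicate 2 and 3 lay below, beside 7.07% and 5.47% of all tested genes. The 5 were Cacna2d2, Cacna1h, Cacna2d3, Cacna1g and Cacng6, with excesses over the mean of the other arrays from 0.27 to 0.96. The 3 below were Hcn2, Cacng5 and Cacna2d1, at -0.37, -0.33 and -0.17. The part of atrial, fat or mesothelial tissue in these values was not tested. Other arrays also stood apart by this margin. On antagonist replicate 3, 2 members lay above and 6 below, beside 5.47% and 7.34% of all tested genes. On sham replicate 1, 4 lay above and 0 below, beside 13.6% and 16.5%.

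**Figure D2:**
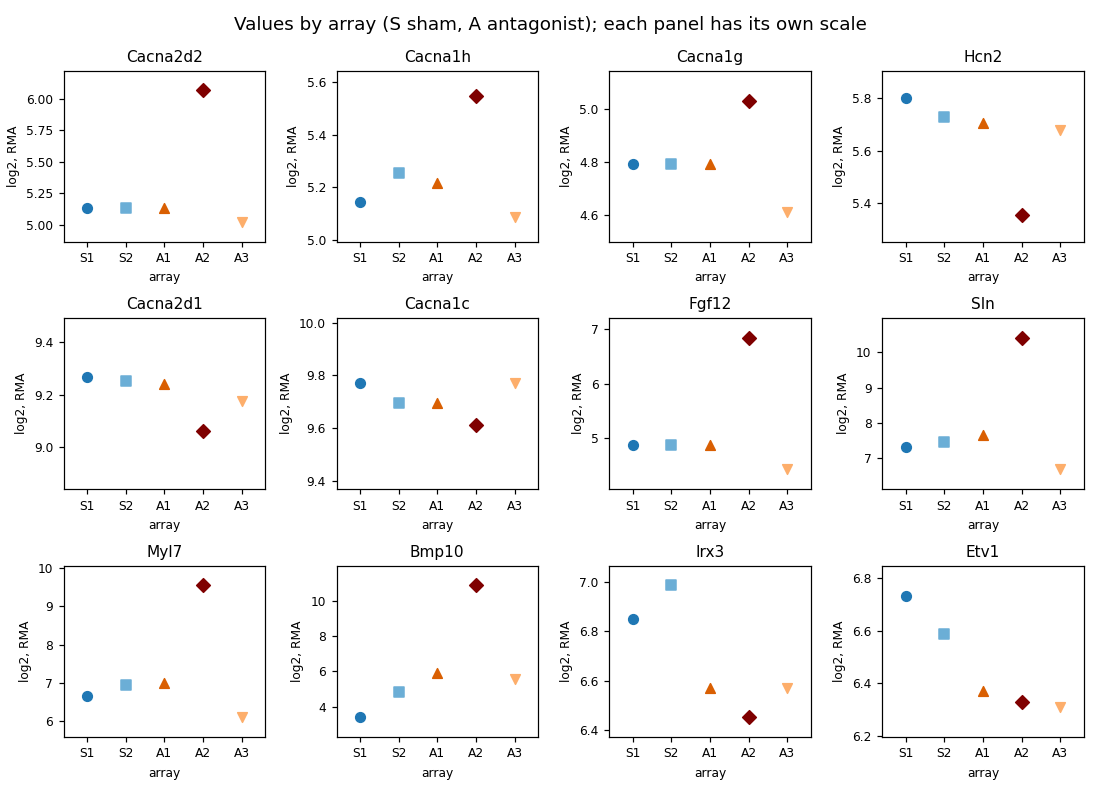
Expression values (log2, RMA; each panel with its own scale) on the 2 sham and 3 antagonist arrays for 6 members, the channel partners Fgf12, Irx3 and Etv1, and the atrial genes Sln, Myl7 and Bmp10. Cacna2d2, Cacna1h, Cacna1g, Fgf12 and the atrial genes are highest on antagonist replicate 2 and Hcn2 is lowest there, while Irx3 and Etv1 are lower on all 3 antagonist arrays than on both sham arrays.

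The pacemaker subunits were measured for Hcn2, Hcn4 and Hcn3. Hcn2 is known as an HCN isoform of ventricular muscle, and measured 5.80 and 5.73 in sham and 5.71, 5.36 and 5.68 with the antagonist. All antagonist hearts lay below both sham hearts, but the step from sham to the nearest antagonist heart was small, and the difference of -0.18 ± 0.13 (adjusted p = 0.64) was -0.07 without antagonist replicate 2. Hcn4, the main HCN channel of the sinus node, measured 4.37 and 4.88 in sham and 4.79, 4.54 and 4.46 with the antagonist. The 2 sham hearts held both the lowest and the highest Hcn4 value, so the difference of -0.03 ± 0.21 had a 95% interval from 0.65-fold to 1.48-fold, and it was -0.28 without sham replicate 1 and 0.22 without sham replicate 2. Hcn3 lay between 3.47 and 3.61.

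REV-ERB receptors bind the half-site AGGTCA, usually behind a stretch rich in A and T, and the upstream sequence of Hcn2 is shown because it holds that half-site 2 times and is the only one among the 4 members without overlap to hold it. The sequence is that of RefSeq on build GRCm38.p6, plus strand, chr10:79716384-79716633, the 250 bases before the annotated start, with the half-sites in capitals.
Hcn2 upstream: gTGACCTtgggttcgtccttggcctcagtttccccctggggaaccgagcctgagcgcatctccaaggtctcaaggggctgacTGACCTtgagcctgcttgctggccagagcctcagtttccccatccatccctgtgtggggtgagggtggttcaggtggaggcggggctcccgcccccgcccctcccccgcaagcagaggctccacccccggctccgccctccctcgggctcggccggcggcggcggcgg
Both copies lie on the minus strand and read TGACCT here. AGGTCA was searched on both strands in the 250 bases before each of 40 annotated starts. These belonged to the 30 of the 39 members that had such a window, which are not the same 30 as those tested. The windows of Cacna2d1, Cacnb2 and Cacng2 overlapped the annotated gene, while that of Hcn2 lay outside it, so they are not alike. Of the 40 windows 4 held AGGTCA, or 10%, compared with 14% of 32851 such windows of all genes. The other 3 were those of Cacng8, Scn8a and Cacna1f. The E-box CACGTG and the D-box TTATGTAA were in 0 of the 40 windows, beside 6.02% and 0.819% of all. A match is a description of letters and says nothing on binding.

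Of the sodium channel genes analysed here, Scn7a had the highest signal. It encodes Nax, a sodium-sensing relative that is not gated by voltage, and measured 7.97 and 7.66 in sham and 7.74 on all 3 antagonist arrays. The antagonist hearts lay between the 2 sham hearts, and the difference of -0.07 ± 0.10 (adjusted p = 0.78) was 0.08 without sham replicate 1 and -0.22 without sham replicate 2. Scn4b encodes the beta4 subunit, and measured 5.62 on both sham arrays and 5.60, 5.62 and 5.87 with the antagonist. Only antagonist replicate 3 stood apart, and the difference of 0.07 ± 0.10 was -0.01 without it.

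Scn3b, the beta3 subunit, measured 3.43 and 3.92 in sham and 3.49, 3.49 and 3.41 with the antagonist. Its difference of -0.22 ± 0.17 (adjusted p = 0.65) rested on sham replicate 2, and was 0.03 without it. The other alpha subunits are known from brain and peripheral nerve, and their signals were low. Scn3a had a mean of 4.35 and differed by 0.03 at most between arrays, and Scn9a, Scn2a, Scn8a, Scn11a, Scn10a and Scn1a had means from 2.07 to 3.12, below the level filter, as did the beta subunit gene Scn2b at 3.05. The 9 measured neuronal markers averaged between 4.07 and 4.17 on the 5 arrays. Of the N, P/Q and R type calcium channels of nerve endings, Cacna1a had the value 4.39 on all arrays, Cacna1b lay between 4.08 and 4.23, and Cacna1e had the value 2.70 throughout and was not tested.

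**Figure D3:**
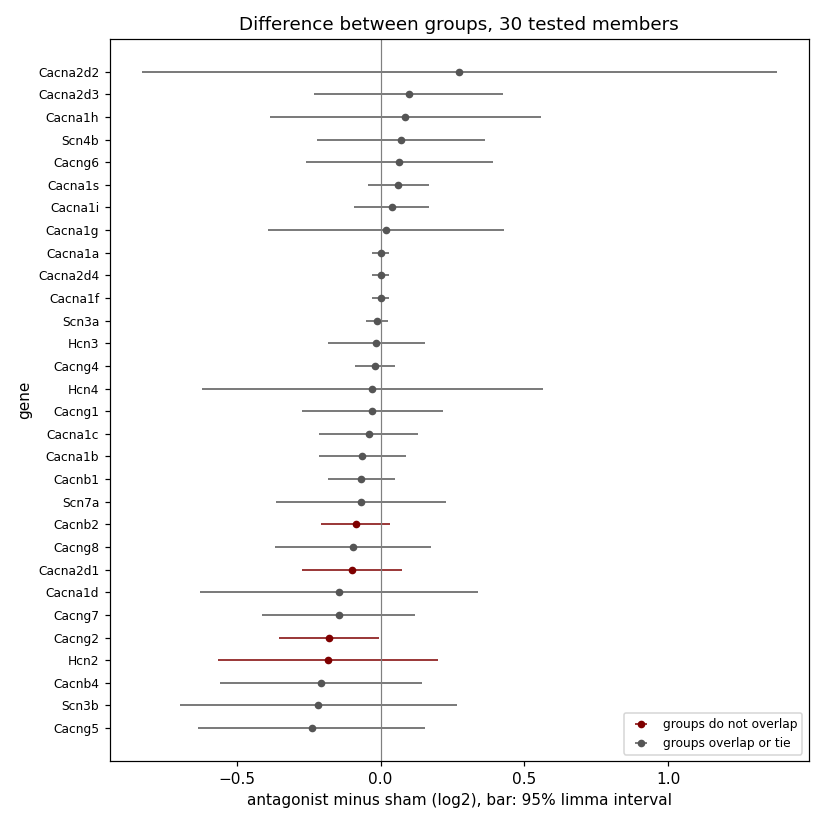
Difference between antagonist and sham hearts (log2) for the 30 tested members, with the 95% interval of limma; the 4 members whose groups do not overlap are in red. The differences run from -0.24 for Cacng5 to 0.27 for Cacna2d2, and the interval of Cacng2 alone does not reach 0 before adjustment.

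The remaining beta and gamma subunits completed the set. Cacnb1, the beta subunit of skeletal muscle, measured 5.53 and 5.44 in sham and 5.38, 5.44 and 5.44 with the antagonist, a difference of -0.07 ± 0.04 (adjusted p = 0.64) that was -0.02 without sham replicate 1. Cacnb4, a beta subunit of brain, measured 4.10 and 3.80 in sham and 3.80, 3.80 and 3.62 with the antagonist. Its difference of -0.21 ± 0.12 (adjusted p = 0.64) was -0.06 without sham replicate 1, and a second, dimmer probe had the value 2.57 on all arrays. Sham replicate 1 thus held the highest value of both genes, as it did, alone, for 12 of the 30 members, beside 22.3% of all tested genes, while antagonist replicate 3 alone held the lowest value of 9, beside 15.9%.

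Of the 8 gamma subunit genes 7 were tested, with 6 differences below 0 and 1 above, and 0 passed. Cacng7, which encodes a relative of stargazin, measured 6.24 and 6.01 in sham and 5.90, 6.03 and 6.01 with the antagonist. Its difference of -0.15 ± 0.09 (adjusted p = 0.64) was -0.03 without sham replicate 1. Cacng5, also of the stargazin family, measured 4.53 and 4.50 in sham and 4.50, 4.10 and 4.22 with the antagonist, where sham replicate 2 and antagonist replicate 1 had the same value. Its difference of -0.24 ± 0.14 was the lowest of the members (adjusted p = 0.64), and was -0.15 without antagonist replicate 2. Cacng1, the gamma subunit of the skeletal muscle channel, lay between 3.81 and 4.02, and Cacng4, Cacng6 and Cacng8 had means from 4.02 to 4.62. Cacng3, at a mean of 3.01, lay below the level filter.

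Genes that act on these channels gave 0 calls as well. The list held accessory proteins, kinases and scaffolds of the channels and transcription factors of the conduction system, of which 51 were measured and 48 tested. The differences were below 0 for 29 and above 0 for 18, with a median of -0.02, and 3 had an unadjusted p under 0.05, beside 4.6% of all tested genes (smallest limma adjusted p = 0.60). The groups did not overlap for 4 of the 48, of which 3 were lower and 1 was higher with the antagonist, beside 12.5% of all tested genes. Irx3, a transcription factor of the fast conduction system, measured 6.85 and 6.99 in sham and 6.57, 6.45 and 6.57 with the antagonist. Etv1, a factor known to give atrial and Purkinje muscle its fast conduction, measured 6.73 and 6.59 in sham and 6.37, 6.33 and 6.31 with the antagonist. Both belong to the 3 lower genes without overlap. The differences were -0.39 ± 0.07 for Irx3 and -0.32 ± 0.05 for Etv1 (adjusted p = 0.64 for each). They do not stand for their class. Of the 11 pacemaker and conduction transcription factors on the list, 7 had a difference below 0 and 4 above, with a median of -0.03. Of the 11 pacemaker and conduction markers, which include Irx3 and Etv1, 5 lay below 0 and 6 above, with a median of 0.01.

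Fgf11 and Fgf12 encode intracellular FGF homologous factors, which bind the C terminus of sodium channels. Fgf11 measured 4.23 and 4.21 in sham and 4.35 on all antagonist arrays, a difference of 0.13 ± 0.01 (adjusted p = 0.60) whose error rests on equal values. Fgf12, singled out after its values were seen, measured 6.84 on antagonist replicate 2, 4.88 on 3 arrays and 4.43 on antagonist replicate 3, the same order of arrays as Cacna1g and Cacna2d2. Akap5, an anchor that holds protein kinase A at the L-type channel, measured 5.50 and 5.25 in sham and 5.25, 5.08 and 5.05 with the antagonist, a difference of -0.25 ± 0.11 (adjusted p = 0.64). The 3 measured RGK genes, small GTPases that inhibit calcium channels, included Rrad, the brightest, at 8.62 and 9.58 in sham and 10.02, 9.84 and 9.12 with the antagonist. Its groups overlapped, and the difference was 0.56 ± 0.45 (adjusted p = 0.65). In a second list of 13 tested leak, store-operated and lysosomal cation channels, 9 differences were below 0 and 2 above, and 0 passed.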

How the data were processed

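The authors deposited log2 expression values made with RMA, per the submitters' processing notes. The genome build, RMA version and probe set library were not given in the sources used here, and no detection calls or scanner files were used. Per the labels' protocols, 300 ng of total RNA gave biotinylated DNA for Affymetrix arrays. Of 41345 probes, 23521 had 1 gene symbol in the platform annotation, and per symbol the probe with the highest mean was kept. All 39 members were found in RefSeq by Entrez Gene identifier under the same symbol. Genes with a mean of at least 3.42 entered a 2-group fit without covariates in limma 3.58.1 (lmFit and eBayes, R 4.3.3), and two-sided p-values were adjusted over all 15294 by Benjamini-Hochberg, with a threshold of 0.05. The scripts were tested on simulated data. With 5 arrays their number limits the precision, and residual degrees of freedom were 3. Median values per array lay between 3.92 and 3.95.

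Members, gene lists and tests were chosen with earlier results of these data known. Values are given by array for the 12 members of highest mean, the 10 of smallest p and a set of cardiac subunits, 18 in all, and partner genes by smallest p or role. The labels call the arrays biological replicates. Alternatives covered the level filter, scaling, probe choice, eBayes settings, weighted arrays, a replicate block and each array left out.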

Additional observations from a re-analysis of the deposited data

How the results depend on the processing

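No member passed with no level filter, a stricter one (60th percentile), quantile-normalized or centred arrays, probes averaged per symbol, trended or robust eBayes, weighted arrays or the replicate block, nor without any single antagonist array. The exceptions were the fits with 1 sham array, where the lone array is assumed to vary like the antagonist arrays and equal antagonist values give small errors. With arrays left out in turn 0 to 2058 of all genes, 0 to 3 of the members and 0 to 8 of the partner genes passed. Without sham replicate 1 these were 1319, 2 and 3, and without sham replicate 2 they were 2058, 3 and 8. The member calls were Scn7a, with opposite signs in the 2 fits (0.08 and -0.22), Scn3b (-0.46), Cacna1b (-0.14) and Scn3a (-0.03), of which all but Scn3b had equal values on the antagonist arrays. Members without overlap numbered 8 with centred arrays and 4 to 14 with arrays left out. The median difference of the members stayed between -0.05 and -0.0095.

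With arrays left out the sign turned, among the 18 members given by array, for Cacna1g (-0.0909 to 0.12), Cacna1h (-0.0461 to 0.184), Cacna2d2 (-0.0552 to 0.465), Hcn4 (-0.28 to 0.223), Scn3b (-0.461 to 0.0289), Scn4b (-0.0143 to 0.122) and Scn7a (-0.222 to 0.0842), and among the other tested members for Cacna1b (-0.141 to 0.0123), Cacng1 (-0.0917 to 0.0343), Cacng6 (-0.0316 to 0.114) and Hcn3 (-0.0462 to 0.0311). Whether the replicate numbers pair the arrays cannot be told from these values. Deviations of same-numbered arrays correlated at -0.11 and 0.03 across genes. With 2 sham arrays, though, the deviations of one mirror those of the other, which ties these correlations to those of differently numbered arrays. With the replicate block 0 members passed (smallest adjusted p 0.74), the median was -0.01, and the sign turned, among the 18, for Hcn4 (0.0408) and Scn4b (-0.0143). No sham array carries the number of antagonist replicate 3, so the block gives the same differences as leaving that array out. Why the signs turned with single arrays left out was not tested. Values near the array medians cannot be told from background here, since no detection calls were used, and 20 of the 30 tested members had a mean below 5.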
